A study of Mus musculus with 6 samples.

Results

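The genes described here are the activin and inhibin subunits Inhba, Inhbb and Inha, the activin-binding proteins Fst and Fstl3, the activin receptors Acvr1b, Acvr1c, Acvr2a and Acvr2b, and the inhibitory Smad gene Smad7. They were taken by symbol, and each of the 10 matched a single gene of the 22298 in the table. The set was chosen by function with the epinephrine-control values of these same samples already known, so the fold changes and FDR values of these 10 genes are a description of the samples and not independent evidence. RNA was sequenced from MIN6 cells, 3 samples of the control group and 3 samples of chronic epinephrine exposure. MIN6 is a single mouse insulinoma line, established from tumours that arose in mice with a T antigen transgene driven by the insulin promoter, so all samples share that background. The study's methods give the concentration as 100 nM and do not name the day of RNA collection, and its experimental scheme has 3 days of epinephrine followed by 2 days of withdrawal. The study describes its data as coming from biological replicates, while the labels only number the samples and do not say whether they were separate cultures. If they were not, p-values measure only the spread between these samples, which may be technical.

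Activins are secreted dimers of inhibin beta subunits, and activin A is the dimer of the subunit encoded by Inhba. A beta subunit paired with the alpha subunit of Inha gives an inhibin, which opposes activin. An activin binds a type II receptor (Acvr2a or Acvr2b), which recruits a type I receptor (Acvr1b, also called ALK4, or Acvr1c, also called ALK7) to phosphorylate Smad2 and Smad3. Which activin dimer uses which of these type I receptors was not tested here. Follistatin (Fst) and follistatin-like 3 (Fstl3) trap the ligand outside the cell, and Smad7 blocks the type I receptor inside it. In islets the pathway is known for its part in endocrine development and insulin secretion.

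Total expected counts were between 15017065 and 18127171 per sample, and edgeR tested the 12747 genes left by a filter on low counts. All 15 beta-cell markers were present, led by Ins2 (log2 fold change 0.01, FDR 0.974), and 3 of them were called (edgeR FDR under 0.05), against 2.63% of all genes. Slc2a2, the glucose transporter, was lower (-0.76, FDR 0.00434), as was the insulin gene Ins1 (-0.50, FDR 0.0152), and the granule protein gene Chgb was higher (0.47, FDR 0.0319). Control 1 stood apart from the other libraries, with correlations of 0.9738 to 0.9785 (log2 CPM, across genes) against 0.9853 to 0.9933 among the rest. The 14 hepatocyte markers found summed to 43.5 and 107 FPKM in controls 2 and 3 and to between 5.35 and 5.94 FPKM in control 1 and the epinephrine samples, and 5 of them were at 0 counts in all epinephrine samples. The 10 fibroblast markers summed to 6.23 FPKM in control 1, 0.53 and 2.48 in controls 2 and 3, and 0.47 to 3.68 after epinephrine. The 10 leukocyte markers summed to 0.5 to 1.88 FPKM in controls and 2.12 to 3.1 after epinephrine, of which Cd68 was the most abundant, with the defining marker Ptprc at no more than 0.09 FPKM in any sample. Of 8 exocrine pancreas markers, Cpa1, Pnlip, Prss1 and Ptf1a were at 0 throughout, and the list summed to 1.63 to 2.31 FPKM in controls and 8.66 to 9.74 after epinephrine. The 9 markers of other islet endocrine cells summed to 175 to 206 FPKM in controls and 365 to 393 after epinephrine, with Gcg as the leading gene. The part of these transcripts in the values of the activin genes was not tested. In bulk RNA, fewer cells of a type and less RNA per cell cannot be told apart.

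Transcripts of 3 receptors, Acvr1c, Acvr2a and Acvr1b, were the most abundant of the 10 genes, and those of the activin beta subunits were scarce. Per transcript length, Acvr1c led in the control group with 24.5 ± 2.48 FPKM (SD, n = 3), above 81.8% of the genes with counts. It was followed by Acvr2a at 11.7 ± 1.05, Acvr1b at 11.1 ± 2.00, Inha at 5.25 ± 0.709, Acvr2b at 3.12 ± 0.397, Fstl3 at 2.17 ± 0.0306 and Smad7 at 1.07 ± 0.230 FPKM. Inhba stood at 0.533 ± 0.156, Inhbb at 0.150 ± 0.0889 and Fst at 0.0133 ± 0.0231 FPKM. Acvr2a and Acvr1b were the only neighbours in this order whose control ranges overlapped. After epinephrine the order of the means was the same, with ranges that overlapped between Acvr2b and Fstl3, between Fstl3 and Smad7, and between Inhbb and Fst. Within the ligand subunits, the alpha subunit Inha was therefore measured at a higher level than either beta subunit in every sample.

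**Figure D1:**
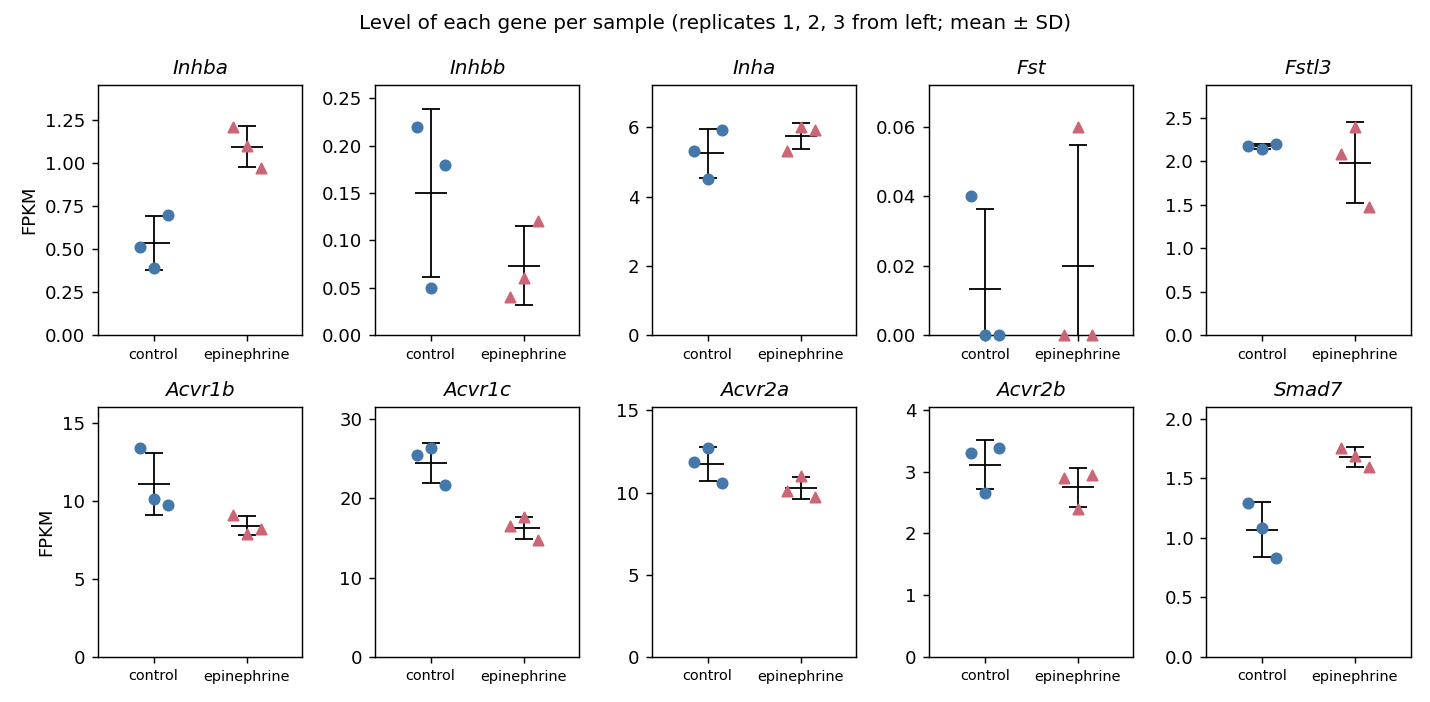
FPKM (vertical axes from 0, a separate scale for each gene) of the 10 genes in the 3 control samples (circles) and the 3 chronic epinephrine samples (triangles), with mean ± SD. The groups are separate for Inhba, Smad7, Acvr1b and Acvr1c, and overlap for the other 6 genes.

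An FDR under 0.05 was reached by 2 of the 8 genes tested, Inhba as higher and Acvr1c as lower after chronic epinephrine, where 2.63% of all genes tested were called (edgeR's quasi-likelihood test, FDR by Benjamini-Hochberg across the 12747 genes). At the same FDR and at least 2-fold, Inhba alone was called, with 0.722% of all genes. Group ranges of normalized CPM (read counts scaled to library total, with TMM factors) were separate for 4 of the 8 genes, Inhba, Smad7, Acvr1b and Acvr1c, and this held for 27.3% of all genes tested. An unadjusted p under 0.05 was found for the same 4 genes and for 17.1% of all genes. Because the genes were picked with these values in view, nothing is read from the counts. Inhbb and Fst did not pass the filter on low counts. In the table as a whole 335 genes were called, with a median log2 fold change of 0.00 over all genes tested and -0.12 over the 8 genes.

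**Figure D2:**
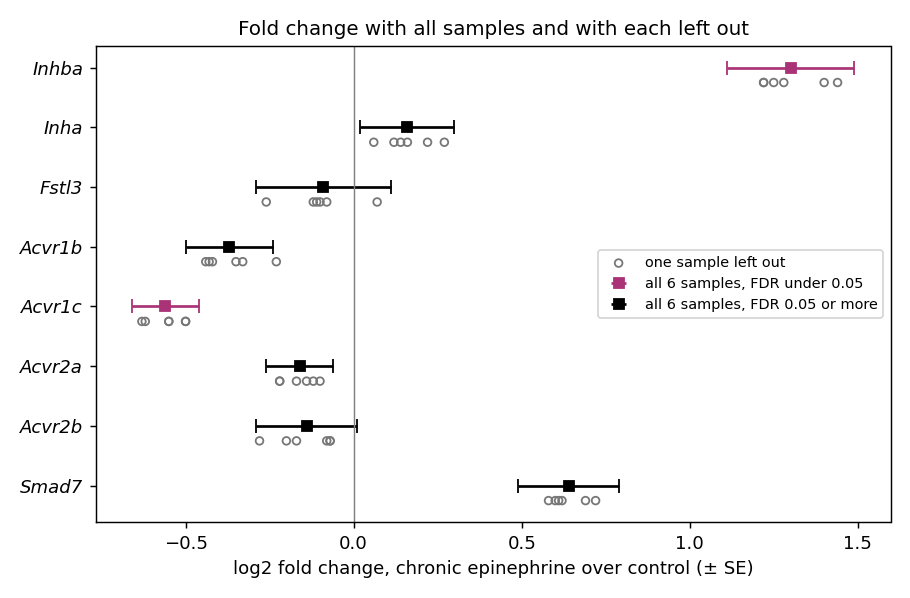
Log2 fold change (horizontal axis, chronic epinephrine over control, bars ± SE) of the 8 tested genes with all 6 samples (squares) and with each sample left out in turn (open circles). Inhba at 1.30 and Smad7 at 0.64 lie right of 0 and the 4 receptors lie left of it in every such fit, while Fstl3 crosses 0.

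Since Inhba and Acvr1c are the members of the set that passed the FDR threshold, the sequence just before the annotated start of each gene (GENCODE) is shown, from RefSeq on GRCm38.p6 and 5′ to 3′ on the strand of the gene, with CpG dinucleotides in capitals. The stretch before Inhba is chr13:16011601-16011850 (plus strand), and that before Acvr1c, whose RefSeq start lies further downstream, inside the annotated gene, is chr2:58357896-58358008 (minus strand).
Inhba: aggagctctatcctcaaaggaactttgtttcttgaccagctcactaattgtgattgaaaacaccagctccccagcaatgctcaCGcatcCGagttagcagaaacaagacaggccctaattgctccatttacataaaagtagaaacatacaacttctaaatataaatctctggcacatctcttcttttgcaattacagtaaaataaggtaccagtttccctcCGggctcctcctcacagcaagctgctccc
Acvr1c: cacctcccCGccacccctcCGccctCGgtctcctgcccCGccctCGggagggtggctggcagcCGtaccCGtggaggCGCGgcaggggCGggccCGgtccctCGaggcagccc
The 250 bases before Inhba hold 3 CpG at 43.2% GC, and the 113 bases before Acvr1c hold 12 CpG at 80.5% GC. Over the full RefSeq window, 250 bases before to 50 after the start, GC was 47.7% for Inhba, higher than in 30.8% of all 32851 windows, and 79.0% for the upstream start of Acvr1c, higher than in 98.6%. A second listed start of Acvr1c had 50.3%. The windows of the other receptors were also GC-rich, with 79.7% for Acvr1b, 80.3% for Acvr2a and 73.3% for Acvr2b, against a median of 52.7% over all windows. Inha, Inhbb and Fstl3 had 55.3%, 64.3% and 70.7%. Both strands of the 9 windows matched to these genes were searched for the cAMP response element TGACGTCA, the Smad palindrome GTCTAGAC and the C/EBP-ATF composite site TTGCATCA. None of the 9 held any of them, so no matches overlapped, and the shares over all windows were 1.79%, 0.213% and 0.895%. This says only that those letters are not in these windows, and Fst and Smad7 had no matched window to search.

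Inhba (ENSMUSG00000041324, chromosome 13 from 16011851 to 16031621 on GRCm38), which encodes the subunit of activin A, was higher after chronic epinephrine. Its normalized CPM were 2.33, 2.51 and 3.19 in controls 1, 2 and 3, and 7.35, 6.84 and 5.62 in chronic epinephrine 1, 2 and 3. The groups were fully separate, and control 3 and chronic epinephrine 3 were the closest pair. The log2 fold change was 1.30 (SE 0.19, FDR 0.0105), or 2.47-fold. Counts behind these values were low, between 36 and 124 per sample. On the FPKM scale the means were 0.533 and 1.09, a smaller difference, and control 1, with 36 counts, had 0.51 FPKM while control 2, with 44 counts, had 0.39 FPKM. Of the 6 fits that each left out a sample, 3 kept Inhba at an FDR under 0.05. Among these 3 was the fit without control 1, which called 21.6% of all genes tested. The FDR of Inhba was 0.0601 without control 2, 0.0877 without chronic epinephrine 1 and 0.0848 without chronic epinephrine 2. With limma on log2(FPKM + 1) the log2 fold change was 0.45 (FDR 0.0725) and on log2(FPKM + 0.1) it was 0.94 (FDR 0.0925). Hepatocyte markers in control 1 were as low as after epinephrine, and Inhba there was at 2.33 CPM and 0.51 FPKM, within the control range on the FPKM scale and the lowest value on the CPM scale.

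Inhbb (ENSMUSG00000037035, chromosome 1 from 119415465 to 119422248), the subunit of activin B, was covered by 14, 4 and 12 counts in controls 1, 2 and 3 and by 3, 5 and 8 counts in chronic epinephrine 1, 2 and 3. The groups overlapped, and the gene was not tested in the reported fit. Without the filter its log2 fold change was -0.93 (FDR 0.575). The ratio of Inhba to Inhbb in FPKM was 2.32, 7.80 and 3.89 in controls and 30.2, 18.3 and 8.08 after epinephrine, and these ratios rest on very few Inhbb counts.

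Inha (ENSMUSG00000032968, chromosome 1 from 75507077 to 75510366), the alpha subunit, had normalized CPM of 7.64, 6.63 and 8.76 in controls and 7.89, 9.02 and 8.79 after epinephrine. The groups overlapped, and the log2 fold change was 0.16 (SE 0.14, FDR 0.615). Inhba was thus higher after epinephrine in a setting where Inha differed by about its standard error. The ratio of Inha to Inhba in FPKM was 10.5, 11.5 and 8.44 in controls 1, 2 and 3 and 4.40, 5.47 and 6.09 in the epinephrine samples, with means of 10.1 ± 1.57 and 5.32 ± 0.858 (SD, n = 3) that do not overlap in range. FPKM per CPM of Inhba varied between samples, at 0.219, 0.155 and 0.219 in controls and 0.165, 0.161 and 0.173 after epinephrine, which enters every FPKM ratio with this gene. Taken from CPM, which is not divided by length, the ratio of Inha to Inhba was 3.28, 2.64 and 2.75 in controls and 1.07, 1.32 and 1.56 after epinephrine, also without overlap. Per length, alpha subunit transcripts were the more abundant in all 6 samples.

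Fst (ENSMUSG00000021765, chromosome 13 from 114452290 to 114458951), which encodes follistatin, had 1 count in control 1, 2 counts in chronic epinephrine 2 and 0 counts in the other samples. A count of 0 allows up to 3 counts, between 0.165 and 0.200 CPM by library, counting error only, so a difference in Fst below that level was not detectable at this depth. Fstl3 (ENSMUSG00000020325, chromosome 10 from 79777272 to 79782630) was the binding protein with appreciable counts. It had normalized CPM of 4.14, 4.17 and 4.32 in controls and 4.09, 4.76 and 2.91 after epinephrine, and chronic epinephrine 3 was the lowest sample. Its log2 fold change was -0.09 (SE 0.20, FDR 0.848) and was 0.07 without that sample. The ratio of Fstl3 to Inhba in FPKM was 4.27, 5.49 and 3.14 in controls and 1.72, 2.18 and 1.53 after epinephrine, with no overlap, and from CPM it was 1.78, 1.66 and 1.35 against 0.556, 0.697 and 0.518. Prss57, which covers 47.3% of the exon bases of Fstl3 on the opposite strand, had 0 counts in every sample.

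Acvr1c (ENSMUSG00000026834, chromosome 2 from 58267453 to 58357895), the type I receptor ALK7, was lower after chronic epinephrine. Its normalized CPM were 206, 224 and 184 in controls 1, 2 and 3 and 138, 151 and 129 in chronic epinephrine 1, 2 and 3. The lowest control was above the highest epinephrine sample. The log2 fold change was -0.56 (SE 0.10, FDR 0.0298), a change of -32.0%, on 1946 to 3915 counts per sample. With a sample left out, the log2 fold change stayed between -0.63 and -0.50. The FDR was then under 0.05 without control 3, and without control 1 in a fit that called 21.6% of all genes tested. It was 0.111 without control 2, 0.211 without chronic epinephrine 1, 0.108 without chronic epinephrine 2 and 0.194 without chronic epinephrine 3. Gm13544 on the opposite strand covers 168 of the 9292 exon bases of Acvr1c, 1.81%, and the strand setting of the counting is not given in the sources used here, so within those bases reads of the 2 genes cannot be told apart.

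Acvr1b (ENSMUSG00000000532, chromosome 15 from 101174067 to 101213684), the type I receptor ALK4, had normalized CPM of 57.5, 44.7 and 43.2 in controls and 40.4, 35.5 and 36.7 after epinephrine. Control 1 was the highest, and the groups did not overlap. The log2 fold change was -0.37 (SE 0.13, FDR 0.183). Without control 1 it was smaller, -0.23, with an FDR of 0.0229, in a fit that called 21.6% of all genes tested. The difference in fold change between Acvr1b and Acvr1c was not tested. Summed over both type I receptors, FPKM were 38.8, 36.5 and 31.4 in controls and 25.6, 25.5 and 23.0 after epinephrine. Acvr1c made up 65.5%, 72.2% and 69.0% of that sum in controls and 64.5%, 69.0% and 64.2% after epinephrine, so the shares overlapped between the groups.

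Neither type II receptor passed the FDR threshold. Acvr2a (ENSMUSG00000052155, chromosome 2 from 48814109 to 48903269) had normalized CPM of 65.6, 72.0 and 60.6 in controls and 57.6, 63.7 and 55.9 after epinephrine, and its log2 fold change was -0.16 (SE 0.10, FDR 0.440). Acvr2b (ENSMUSG00000061393, chromosome 9 from 119402118 to 119434995) had 9.65, 7.32 and 9.76 in controls and 8.30, 7.23 and 8.66 after epinephrine, and its log2 fold change was -0.14 (SE 0.15, FDR 0.685). For both genes the groups overlapped. Orc4 on the opposite strand covers 7.84% of the exon bases of Acvr2a, the expected counts of both genes are not whole numbers, and Orc4 was at 36.9 CPM in control 1 against 56.7 to 61.6 in the other samples. Summed FPKM of the type II receptors were 15.2, 15.3 and 14 in controls and 13.0, 13.4 and 12.7 after epinephrine, without overlap. Whether the type I and type II receptors differed in their change was not tested. The ratio of type I to type II sums was 2.56, 2.37 and 2.24 in controls and 1.97, 1.90 and 1.81 after epinephrine, with means of 2.39 ± 0.157 and 1.90 ± 0.0807 (SD, n = 3) and no overlap.

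**Figure D3:**
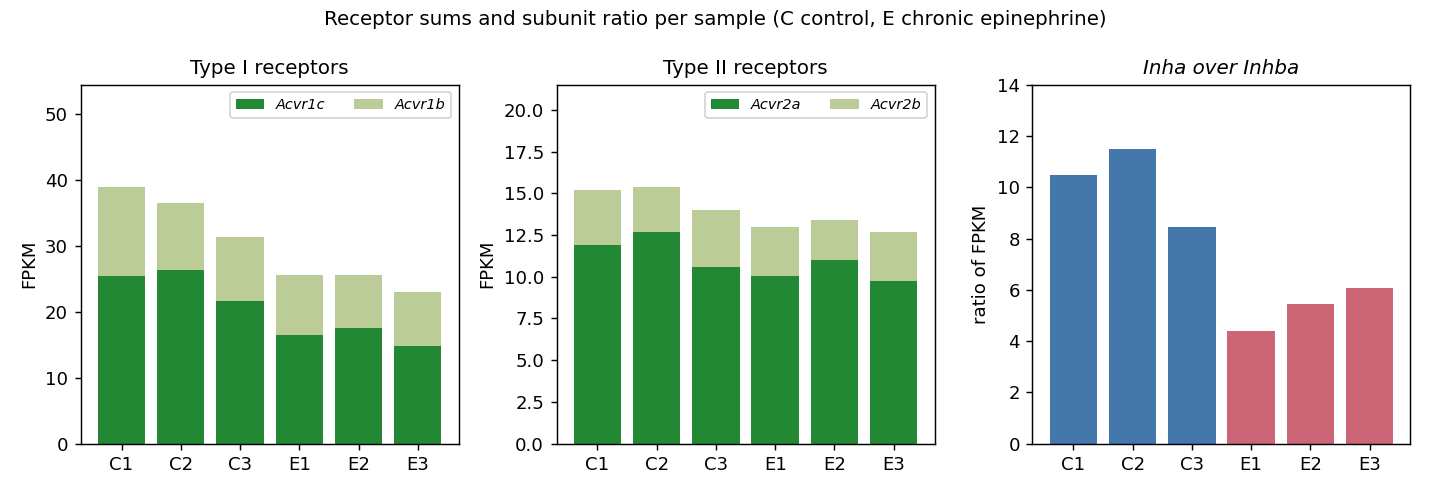
Left and middle, FPKM (vertical axis from 0) of the type I and type II receptors stacked for each control (C) and chronic epinephrine (E) sample. Right, the ratio of Inha to Inhba FPKM, which lies between 8.44 and 11.5 in controls and between 4.40 and 6.09 after epinephrine.

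Smad7 (ENSMUSG00000025880, chromosome 18 from 75367529 to 75395935), the inhibitory Smad, had normalized CPM of 3.88, 3.49 and 3.57 in controls and 5.87, 6.11 and 5.02 after epinephrine. All 3 epinephrine samples were above all controls. The log2 fold change was 0.64 (SE 0.15, FDR 0.0765), which does not pass the threshold, on 57 to 109 counts per sample. Without control 1 it was 0.69 with an FDR of 0.00902, in the fit that called 21.6% of all genes tested. No other alternative put Smad7 under an FDR of 0.05, and the alternatives gave FDR values from 0.00902 to 0.329.

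The rest of the transforming growth factor beta superfamily was described with a list of 93 genes written from general knowledge, of which 45 were tested. None passed an FDR of 0.05 in edgeR, against 2.63% of all genes, and 8 had an unadjusted p under 0.05, 2 higher and 6 lower, a share close to the 17.1% of all genes. Group ranges were separate for 15 of the 45, against 27.3% of all genes. The median log2 fold change was -0.06, with 15 genes higher and 30 lower, and the range was -0.46 to 0.67. DESeq2 called 3 of the 56 listed genes to which it gave an adjusted p-value, all lower, against 5.23% of all genes. They were Smad5 (log2 fold change -0.31, FDR 0.0120), Tgfbr1 (-0.30, FDR 0.0280) and Smad1 (-0.39, FDR 0.0492). Without control 1, edgeR called these 3 together with Bmpr1a and Furin, all lower, in the fit that called 21.6% of all genes. Tgfbr1 is the type I receptor for transforming growth factor beta, and Smad1 and Smad5 carry signals of bone morphogenetic protein receptors.

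Of 29 further ligands, 18 had no more than 3 counts in any sample and 4 were tested. Gdf5, Nodal, Bmp8b, Bmp10 and Bmp15 had 0 counts throughout, and Inhbc and Inhbe, the subunits made mainly by hepatocytes, had at most 2 counts in a sample. Tgfb1 was the most abundant ligand, at 16.75 FPKM in control 1, 9.24 and 9.90 in controls 2 and 3, and 9.88, 9.59 and 9.64 after epinephrine. Its groups overlapped (log2 fold change -0.29, SE 0.20, FDR 0.514), and control 1 was far above the other 5 samples. Among 16 receptors and co-receptors 7 were tested and all were lower in mean, with a median of -0.14. Igsf1, an immunoglobulin superfamily membrane protein, was the most abundant at 44.1 ± 8.53 FPKM in controls and 41.5 ± 1.05 after epinephrine (FDR 0.687). Rgmb, a co-receptor for bone morphogenetic proteins, had the largest fold change of the group at -0.31 (FDR 0.373). Tgfbr2, the type II receptor that Tgfbr1 needs for its ligand, reached no more than 0.06 FPKM.

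Of 14 Smads and Smad partners 13 were tested, 6 higher and 7 lower. Smad4, the shared partner of the receptor Smads, led with 22.5 ± 3.95 FPKM in controls and 20.9 ± 0.267 after epinephrine (FDR 0.778). Smad3, the activin-responsive Smad with the largest fold change, had 3.27, 2.16 and 2.57 FPKM in controls and 2.09, 2.36 and 1.48 after epinephrine, with overlapping groups and a log2 fold change of -0.39 (FDR 0.301). Of 17 extracellular and membrane inhibitors 7 were tested. Twsg1, which binds bone morphogenetic proteins, led at 79.4 ± 2.96 FPKM in controls and 71.4 ± 1.06 after epinephrine (log2 fold change -0.13, FDR 0.448), and Grem1, an antagonist of the same ligands, had the largest fold change at 0.67 (FDR 0.203). All 10 intracellular inhibitors and turnover genes were tested, 3 higher and 7 lower, with Strap as the most abundant (log2 fold change 0.20, FDR 0.367) and the ubiquitin ligase Smurf1 furthest from 0 (-0.31, FDR 0.399). Among the proteases that process precursors, Bmp1 was the most abundant (-0.03, FDR 0.938). Furin, which cleaves activin precursors, had 33.86, 19.47 and 22.80 FPKM in controls and 17.14, 17.43 and 18.71 after epinephrine (-0.46, FDR 0.248), with control 1 the highest. Without control 1 its log2 fold change was smaller, -0.19 (FDR 0.0254), in the fit that called 21.6% of all genes.

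Genes known to be induced through Smad2 and Smad3 were listed as 17 genes, 9 of them tested. None passed the FDR threshold and 3 had an unadjusted p under 0.05, all higher, against 17.1% of all genes, while the median log2 fold change was 0.16. Cdkn1a, a cell cycle inhibitor, was the most abundant, at 48.52, 43.18 and 47.22 FPKM in controls and 55.71, 56.60 and 56.87 after epinephrine, without overlap (log2 fold change 0.30, SE 0.08, FDR 0.106). The 12 genes induced through Smad1, Smad5 and Smad9 had 9 tested, none at the threshold and 4 with an unadjusted p under 0.05, 3 higher and 1 lower, and a median log2 fold change of 0.04. The inhibitor of differentiation Id1 had 9.93, 15.01 and 14.89 FPKM in controls and 20.83, 18.77 and 21.38 after epinephrine, without overlap (log2 fold change 0.63, SE 0.17, FDR 0.0991), and control 1 was the lowest. Id2, the most abundant of them, had 43.4 ± 8.88 FPKM in controls and 58.0 ± 3.96 after epinephrine (log2 fold change 0.43, FDR 0.202). Hamp, a hepatocyte gene in this list, had 8 and 15 counts in controls 2 and 3, the libraries with hepatocyte markers, and 0 elsewhere. Some genes stand both in a target list and in the list of 93.

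**Figure D4:**
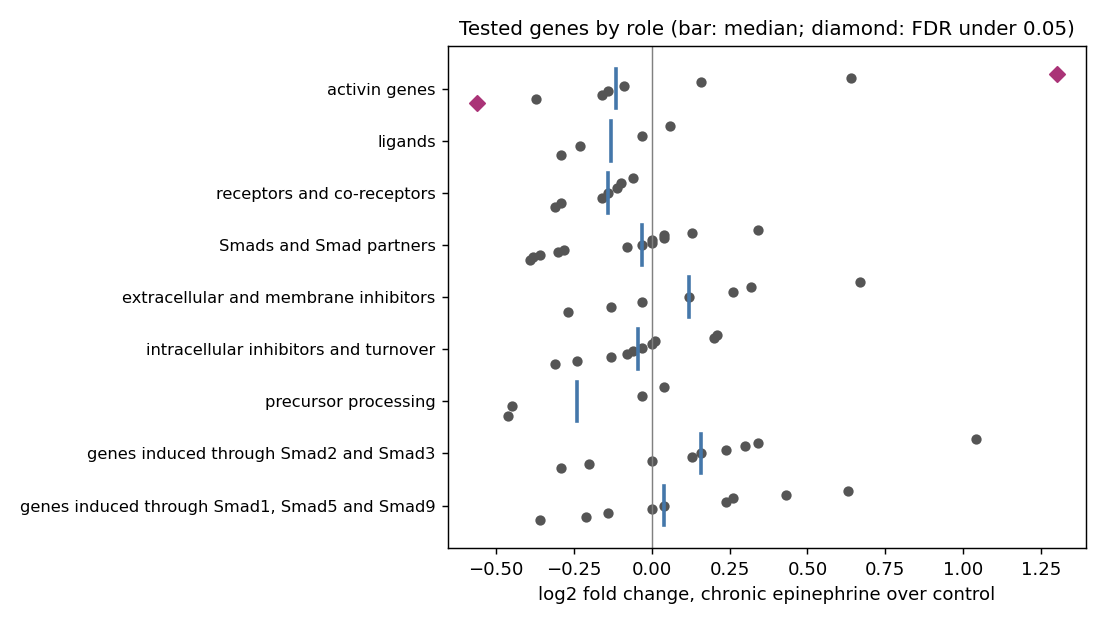
Log2 fold change (horizontal axis, chronic epinephrine over control) of every tested gene in each list (rows), with the median as a vertical bar and genes at an FDR under 0.05 as diamonds. Only Inhba and Acvr1c, in the top row of activin genes, are drawn as diamonds.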

How the data were processed

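Total RNA of 6 samples was sequenced on an Illumina Novaseq6000. The table deposited by the authors gives for each gene an expected count per sample, not scaled between samples (8.34% of values were not whole), and an FPKM value, scaled by the authors to transcript length and library total. The submitters' processing notes name GRCm38, and the aligner, counting tool and annotation are not given in the sources used here. Counts were rounded, filtered with filterByExpr, scaled by TMM (factors 0.9852 to 1.029) and tested in R 4.3.3 with edgeR 4.0.16 (quasi-likelihood), and p-values were adjusted over all genes tested. The study's methods name DESeq2 and edgeR. DESeq2 1.42.0 and limma 3.58.1 served as alternatives, and the fit was tested on simulated data. SE is the size of the log2 fold change divided by the square root of F. The analysed genes and gene lists were chosen with earlier results of these data known. The named genes were the 10 chosen genes and, in each list, every called gene, the most abundant gene and the tested gene with the largest fold change, except that a few listed genes are not reported here. Some further genes, such as Slc2a2, Ins1, Chgb, Tgfbr1, Tgfbr2, Hamp, Orc4 and Prss57, were named after their values were seen. Positions and exon overlaps are from GENCODE M21 on GRCm38. Of the members' 50-base transcript windows, 0.331% were shared with other genes for Inhba and 0 for the others. Promoter windows are from RefSeq on GRCm38.p6, and 8 of the 10 genes matched (not Fst and Smad7). Protein sequences were not used here. Alternatives were other scalings, filters and tests, the replicate number as a block, and each sample left out. Same-numbered samples deviated together by correlations of 0.0502, 0.0677 and -0.0488, so the numbers were not taken as pairs.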

Additional observations from a re-analysis of the deposited data

How the results depend on the processing

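Depth limits Fst, Inhbb and most other ligands, where a few counts decide a value. With all 6 samples, 2 of the 10 genes were called, and with a sample left out 0 to 4 (0 without control 2, chronic epinephrine 1 or chronic epinephrine 2, and 4 without control 1). Limma on log2 FPKM with either pseudocount called 1, Acvr1c. The number of all genes called was 335, 734 with DESeq2, 178 with the replicate block and 47 to 2798 with a sample left out. The replicate block called the same number of the 10 genes, 2. Of the list of 93 genes, 0 were called, 3 with DESeq2 and 0 to 5 with a sample left out. In a fit chosen after seeing the data, controls 2 and 3 were left out, and the lone control is assumed to vary like the epinephrine samples. It called 6362 of 13132 genes tested (48.4%), 26 of 47 tested in the list of 93 (median log2 fold change -0.30) and 3 of the 9 tested of the 10 genes, with Inhba at 1.49, Acvr1c at -0.58 and Acvr1b at -0.63. With a sample left out, the log2 fold change of Fstl3 ranged from -0.26 to 0.07, and it changed sign without chronic epinephrine 3 (0.07). The cause of these shifts was not tested. The other 7 tested genes kept their direction in all 16 alternatives, while the size of the change moved for some. With a sample left out, the log2 fold change ranged from 0.06 to 0.27 for Inha. It ranged from -0.22 to -0.10 for Acvr2a and from -0.28 to -0.07 for Acvr2b. Limma on log2(FPKM + 1) gave 0.38 for Smad7, against 0.64 in the reported fit. Ordered by CPM in place of FPKM, Acvr2b and Inha exchanged places.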
